A study of Bos taurus with 18 samples.

Results

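EGF-like ligands and ERBB receptors were followed in bovine cumulus cells, the somatic cells that surround the oocyte, while follicles grew on without FSH. The set held 10 genes named by their role: the ligands AREG, EREG, BTC, HBEGF, TGFA and NRG1 and the receptors EGFR, ERBB2, ERBB3 and ERBB4. By the platform's gene symbols, 8 of the 10 genes had 11 probes among the 43794 gene probes of the array. AREG, HBEGF, TGFA, EGFR, ERBB3 and ERBB4 had 1 probe each, NRG1 had 2 and BTC had 3. No probe carried the symbol EREG or ERBB2, and those genes were not analysed here. Of the 11 probes, 5 rose above background often enough to be tested, out of 27381 such probes in all: the 3 of BTC and those of EGFR and ERBB3.

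The cells came from 6 Holstein cows over 24 ovum pick-up collections. FSH, the pituitary hormone on which growing follicles depend, was given in the luteal phase as 6 injections of 40 mg spaced 12 h apart, which took 3 days. Coasting, the time without FSH that followed, lasted 20, 44, 68 or 92 h, and every cow went through all 4 durations in separate cycles. The follicles sampled were 3 to 5 mm wide after 20 h, 6 to 8 mm after 44 or 68 h and over 8 mm after 92 h. Coasting time and follicle size therefore cannot be told apart in the comparisons with 20 h, while 44 and 68 h shared 1 size class. All groups shared the FSH treatment, and none was left untreated. Each of the 18 dual-colour arrays set RNA of 44, 68 or 92 h directly against RNA of 20 h, with 3 replicates per time and both dye orientations per replicate. The labels do not tie cows to replicates, so the spread behind the p-values is that of these samples and may be partly technical.

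EGF-like ligands are made as proteins anchored in the cell membrane, and proteases of the ADAM family cut them free. The released ligands bind ERBB receptors, which pair up and switch on the RAS to ERK and PI3K pathways. EGFR and ERBB4 bind ligand and are active kinases, ERBB2 has no ligand of its own, and ERBB3 binds neuregulins but has little kinase activity and signals through a partner. In rodent follicles the luteinizing hormone surge makes granulosa cells produce AREG, EREG and BTC, which act on EGFR of the cumulus cells to start cumulus expansion and oocyte maturation. In the bovine reference assembly ARS-UCD2.0, EREG, AREG and BTC lie next to one another, with 0 other protein-coding genes between EREG and AREG and 0 between AREG and BTC.

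The labelled cell type was checked with 18 markers of cumulus and granulosa cells, all 18 of which passed the filter on dim probes. Of all named genes on the array, 11044 of 15216 passed it. Some markers of other cell types passed as well, so passing does not identify the cell type by itself. In the 20 h RNA, 13 of the 18 markers were above background in all 18 channels, among them FSHR and CYP19A1. FOXL2, a transcription factor of granulosa cells, was above background in 0 of 6 channels of 92 h RNA and 6 of 18 of 20 h RNA, and AMHR2, the receptor of anti-Müllerian hormone, in 0 of 6 and 11 of 18. Per array, 44.3 to 68.7% of the gene probes were above background in Cy3 and 26.5 to 58.9% in Cy5. Precision is limited by how many arrays there were. Between the 2 orientations of a replicate, r across probes ran from -0.22 to 0.60 once the ratios had 1 direction. Between replicates of 1 time, r across probes was at most 0.18 at 44 h and 0.50 at 68 h, and at least 0.42 at 92 h. Probes do not count as independent samples in these correlations.

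The signal of the members fell into 3 ranges when set against the detection limit, which is the mean plus 2 SD of the 153 negative control spots of each channel. BTC probe EMBV3_17855 stood far above the limit, at 5.68 to 35.7 times the limit over the 36 channels, with a median of 16.6. BTC probe EMBV3_40394 had 1.68 to 6.74 times the limit and ERBB3 had 1.28 to 6.45 times, so both cleared it in 36 of 36 channels. BTC probe EMBV3_07896 cleared it in 34 of 36 channels and EGFR in 20 of 36, with medians of 1.30 and 1.04 times the limit. These multiples describe how readable each probe was, and since probes differ in how well they hybridise, they do not rank the genes by mRNA.

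**Figure D1:**
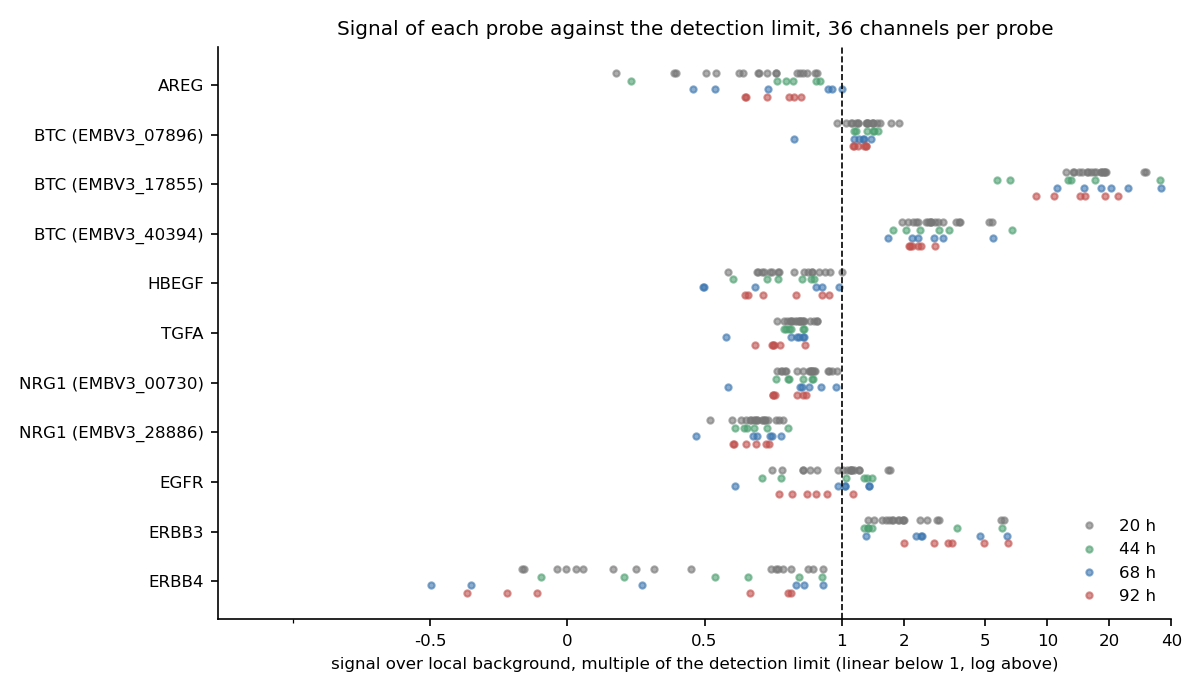
Signal over local background of each ligand and receptor probe, as a multiple of the detection limit (x axis, linear below 1 and logarithmic above), with 1 point per array channel and 36 channels per probe, coloured by coasting time. The dashed line is the limit. All 36 channels of ERBB3 and of BTC probes EMBV3_17855 and EMBV3_40394 lie to its right, and all 36 of TGFA, ERBB4 and both NRG1 probes lie to its left.

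The remaining 6 probes stayed at or below the limit. AREG crossed it in 1 of 36 channels, at 68 h, with a median of 0.76 times the limit. HBEGF, a ligand of EGFR and ERBB4, also crossed it in 1 channel, at 20 h, with a median of 0.80. TGFA, a ligand of EGFR, had a median of 0.83 and crossed it in 0 channels. NRG1, the neuregulin that binds ERBB3 and ERBB4, had medians of 0.86 for EMBV3_00730 and 0.69 for EMBV3_28886 and likewise crossed it in 0 channels. ERBB4 had a median of 0.49 and crossed it in 0 channels, and its signal ranged from -0.50 to 0.93 times the limit. For these genes the arrays give no usable level at any of the 4 times, and a low mRNA level and a probe that hybridises poorly cannot be told apart.

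ERBB3 mRNA (probe EMBV3_40971) was higher after 92 h of coasting than at 20 h, by 1.61-fold, and its mean stood between these at 68 h. It was the 1 member probe that passed the test. The log2 ratios over 20 h at 92 h were 0.81 in replicate 1, 0.53 in replicate 2 and 0.71 in replicate 3, a mean of 0.68 ± 0.14 (SD, n = 3) with a 95% interval of 0.53 to 0.83. The adjusted p was 0.0168 by limma's moderated test with Benjamini-Hochberg adjustment over all 27381 probes, and by p-value ERBB3 was number 17 of them. At 68 h the ratios were 0.49, 0.36 and 0.37, a mean of 0.41 ± 0.07 or 1.33-fold. That mean did not pass the test, with an adjusted p of 0.10 by limma.

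At 44 h the ERBB3 ratios were 0.13, -0.06 and -0.07, a mean of -0.00 ± 0.11 with a 95% interval of -0.15 to 0.15 and an adjusted p of 0.999 by limma. All 3 replicates lay above 0 at 68 h and again at 92 h, and the replicates of 44 h lay on both sides of it. Every replicate of 92 h was above every replicate of 68 h, and every replicate of 68 h was above every replicate of 44 h.

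The differences between the longer times, which meet only through the 20 h RNA, did not pass the test for ERBB3. The log2 ratio at 68 h exceeded that at 44 h, with follicles of the same size class, by 0.41, with a 95% interval of 0.20 to 0.62 and an adjusted p of 0.517 by limma. That at 92 h exceeded that at 68 h by 0.28, with an interval of 0.07 to 0.49 and an adjusted p of 0.929 by limma. That at 92 h exceeded that at 44 h by 0.68, with an interval of 0.47 to 0.89 and an adjusted p of 0.171 by limma, or 0.506 with the replicate number as a block. The intervals are those of the single probe, unadjusted, and each excludes 0.

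**Figure D2:**
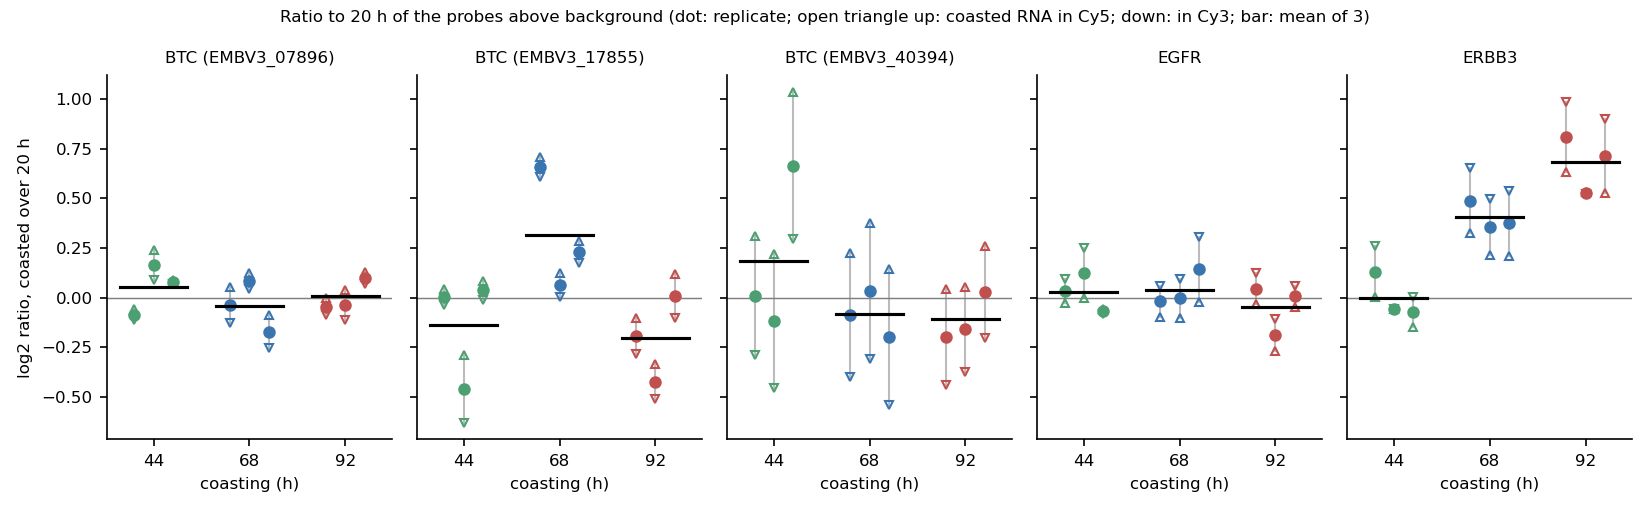
Log2 ratio of coasted over 20 h RNA (y axis) at 44, 68 and 92 h for the 5 probes above background, with a filled dot per replicate, open triangles for its 2 dye orientations and a bar at the mean of 3 replicates. The ERBB3 dots of 92 h sit between 0.53 and 0.81, and the dots of the other probes scatter around 0 at every time except those of BTC probe EMBV3_17855 at 68 h, which lie between 0.06 and 0.66.

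Both dye orientations gave ERBB3 the same direction at the later times. With the 92 h RNA in Cy3 the 3 ratios ran from 0.52 to 0.98, and with it in Cy5 they ran from 0.53 to 0.63. At 68 h the Cy3 ratios ran from 0.50 to 0.65 and the Cy5 ratios from 0.21 to 0.32. All 6 arrays were above 0 at each of these times, and at 44 h 3 of 6 were, with ratios from -0.15 to 0.26. The means with the coasted RNA in Cy3 were 0.80 at 92 h and 0.56 at 68 h, against 0.56 and 0.25 in Cy5. The mean was thus larger in Cy3 at both times, with the same sign in both dyes. Replicate 2 of 92 h did not share this, with 0.52 in Cy3 and 0.54 in Cy5, and a dependence on the dye was not tested.

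The slides can be compared for 44 h and replicate 3 of 68 h, which shared a pair of slides. On the slide with the coasted RNA in Cy3, the 1 array of 68 h had an ERBB3 log2 ratio of 0.54 and the 3 arrays of 44 h had 0.26, -0.06 and 0.00. On the other, with the coasted RNA in Cy5, the array of 68 h had 0.21 and those of 44 h had 0.00, -0.06 and -0.15. The 68 h array was thus the highest of 4 on both slides. Both of these arrays hold replicate 3 of 68 h, in its 2 dye orientations, so this rests on 1 sample. Replicates 1 and 2 of 68 h were on a slide without arrays of 44 h. The arrays of 92 h filled a pair of slides of their own, so for differences between 92 h and the other longer times slide and time cannot be told apart, while each ratio to 20 h was taken within 1 array.

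The channel levels of ERBB3, on a log2 intensity scale after normalization between arrays, were spread widely within each time. The 20 h levels had a lowest value of 8.36, a median of 8.52 and a highest of 9.06 over 9 replicate values, a span of 1.63-fold. The levels were 9.16, 8.33 and 8.5 at 44 h, 8.87, 8.88 and 9.43 at 68 h and 9.84, 8.89 and 9.20 at 92 h. In the order of the means, 20 h had 8.65 ± 0.30 (SD, n = 9), 44 h had 8.66 ± 0.44, 68 h had 9.06 ± 0.32 and 92 h had 9.31 ± 0.49 (SD, n = 3 each). The levels of every pair of neighbouring times overlapped, also those of 92 h and 20 h, while each 92 h sample exceeded the 20 h sample on its own arrays.

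Of the 9 values at 20 h, 3 stood apart from the others for ERBB3. The 20 h level was 9.03 on the arrays of 92 h replicate 1, 9.03 on those of 44 h replicate 1 and 9.06 on those of 68 h replicate 3. On the remaining arrays it ran from 8.36 to 8.58. The coasted sample was also the highest of its time on each of these 3 pairs of arrays, at 9.84, 9.16 and 9.43. Whether these arrays shared 20 h RNA is not stated in the labels, and the test treats all 9 ratios as independent.

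**Figure D3:**
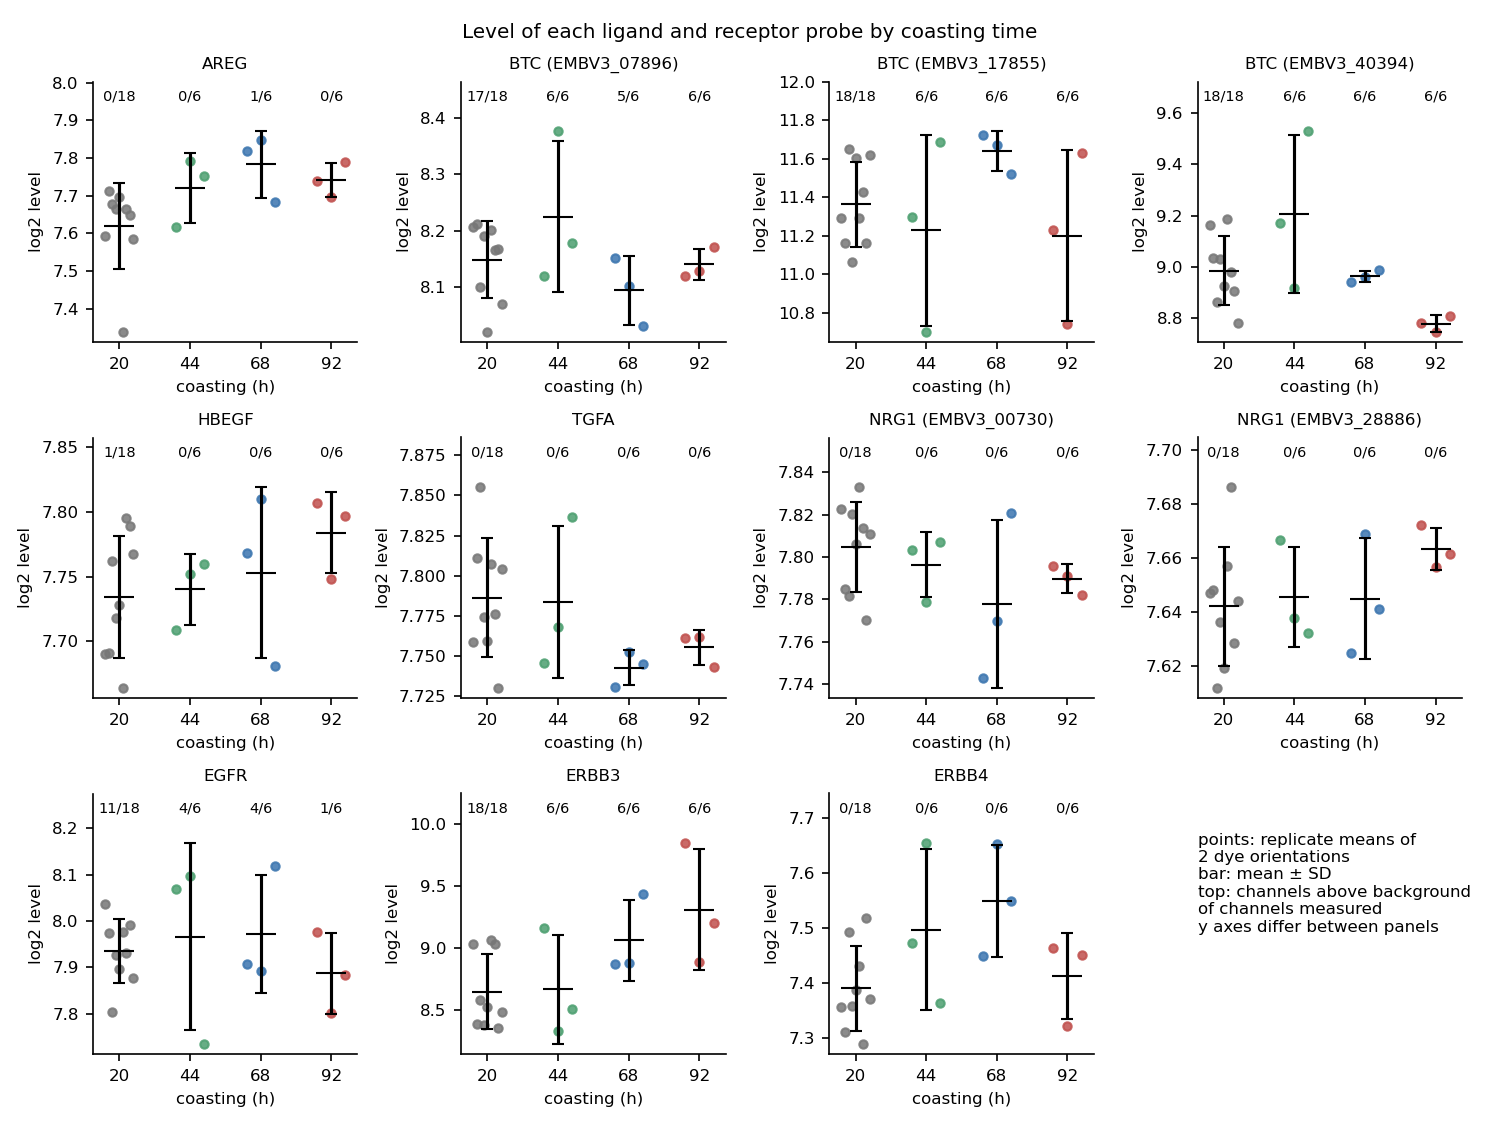
Log2 channel level after normalization (y axis, scaled for each panel) by coasting time for the 11 probes, with 1 point per replicate, a bar at the mean ± SD and, on top, the number of channels above background of those measured. ERBB3 has means of 8.65, 8.66, 9.06 and 9.31 from 20 to 92 h with overlapping points, and BTC probe EMBV3_40394 has 3 points between 8.75 and 8.81 at 92 h.

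Read against all probes, ERBB3 was 1 of 5 member probes called at 92 h, and 1.3% of the 27381 tested probes were called (355, of which 202 higher and 153 lower). At 44 h and at 68 h 0 of the 5 member probes were called by limma, and 0% of the tested probes were, although 2525 probes at 44 h and 3145 at 68 h had an unadjusted p under 0.05, against 4292 at 92 h. Between any 2 of the longer times the share called was 0% as well, with 1505 probes at an unadjusted p under 0.05 for 68 h over 44 h, 1442 for 92 h over 68 h and 2114 for 92 h over 44 h. One sign in all 3 replicates was shown by 0 of 5 member probes at 44 h, 2 at 68 h (ERBB3 and BTC probe EMBV3_17855) and 1 at 92 h (ERBB3). The background shares were 25.9%, 42.5% and 42% of all tested probes, so the members did not exceed the background in this count. ERBB3 was above the detection limit in all 18 channels of 20 h RNA as well, at 1.35 to 6.18 times the limit. It thus did not owe its place in the test to its level at 92 h.

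The call of ERBB3 at 92 h depended on the number of replicates and on the processing, while its direction did not. It was kept under 16 of 23 alternatives and was above 0 under all 23, at 0.56 to 0.84. Many of these change only the filter, the spread estimate, a replicate block or the replicates of other times. Such settings leave the mean ratio at 92 h as it was, so they could not change its direction and are no test of it. The call was lost without 92 h replicate 1, 2 or 3 (adjusted p = 0.130, 0.0502 and 0.0555), with median centring in place of loess (0.0651), with a trended and robust variance prior (0.114), when the 3 ratios of 92 h were fitted alone (0.0671) and in the fit of 44 and 92 h with the replicate number as a block (0.122), all by limma. At 68 h ERBB3 passed under 4 of 23 alternatives, each of them a fit of single arrays or of 1 dye orientation.

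**Figure D4:**
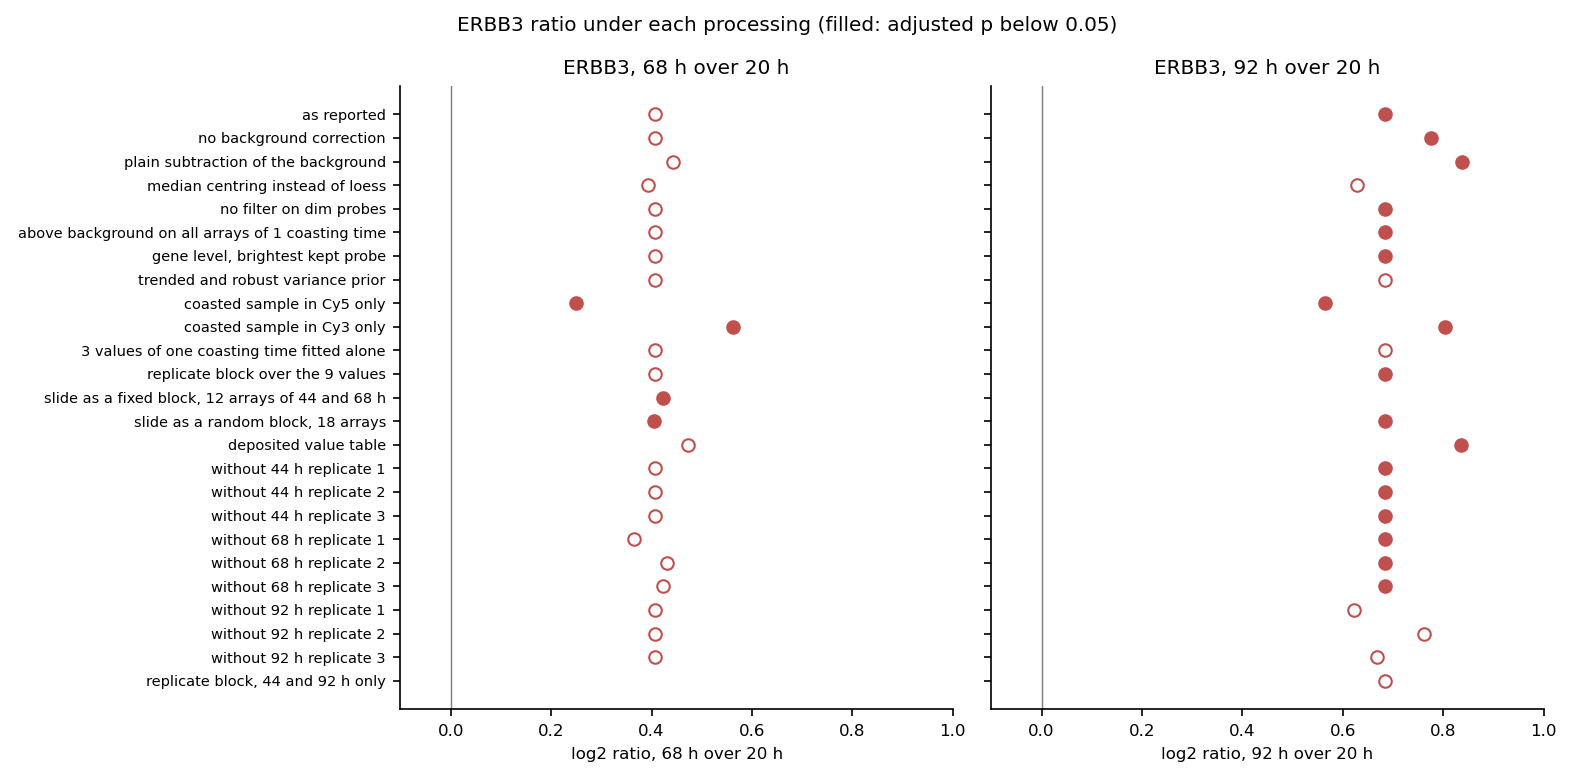
Log2 ratio of ERBB3 over 20 h (x axis) at 68 h and at 92 h under each processing (rows), filled where the adjusted p was below 0.05. All points lie to the right of 0, between 0.25 and 0.56 for 68 h and between 0.56 and 0.84 for 92 h.

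Some markers of other cell types differed at 92 h as well, and their part in the result of ERBB3 was not tested. In bulk RNA, fewer cells of a type and less RNA per cell cannot be told apart. Of 14 markers of theca and stroma 11 were above background, and their summed intensity ran from 14822 to 22481 in the 92 h samples, against 10764 to 12811 in the 20 h samples on the same arrays. Of these 11, 5 were above background in under 50% of the channels of 20 h RNA, and they are part of the sum. The median log2 ratio of the 11 was 0.03, with 6 of 11 above 0 and 1 called. The 1 called was MYH11, a smooth muscle myosin, which rose by 1.47 on the log2 scale (adjusted p = 0.0149 by limma). It was above background in 6 of 6 channels of 92 h RNA and in 8 of 18 of 20 h RNA, so it did not pass the filter on dim probes through 20 h and its ratio rests on a 20 h side mostly at background. The markers PDGFRA and ACTA2, above background in 18 of 18 channels of 20 h RNA, had 1.66 and 0.57 and were above 0 in all 3 replicates. Neither passed the test (adjusted p = 0.0546 and 0.626 by limma). COL1A1, COL3A1 and LUM, matrix genes of stromal cells, had -0.05, 0.93 and -0.48. COL3A1 had 0.05, 2.78 and -0.03 in the 3 replicates, with an adjusted p of 0.433 by limma. It was above background in 4 of 6 channels of 92 h RNA and 8 of 18 of 20 h RNA, so it too did not pass the filter through 20 h. CYP17A1, the steroid enzyme of theca cells, was above background on 0 of 6 arrays at 92 h.

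Of 13 leukocyte markers 4 were above background, with a summed intensity of 1455 to 2914 at 92 h, against 1186 to 1317 at 20 h. None of the 4 passed the test, with adjusted p of 0.0591 or above by limma. CXCR4 and CD68 had log2 ratios at 92 h of 1.43 and 0.93 (adjusted p = 0.0651 and 0.0591 by limma), and PTPRC and CD3E had 0.05 and -0.02. CD14 and CSF1R were not above background often enough to be tested. The summed intensity of the 18 cumulus and granulosa markers ran from 123676 to 175589 at 92 h, against 151811 to 210066 at 20 h, with a median log2 ratio of -0.26 and 0 called by limma in either direction. Replicate 2 of 92 h stood apart in these markers: its median was -0.66, against -0.14 in replicate 1 and 0.04 in replicate 3, and INHBA, INHBB and CYP19A1 had -3.07, -3.91 and -2.88 in it. Without replicate 2 the median of the 18 markers was -0.04, and ERBB3 had 0.76. The oocyte, endothelial and erythrocyte markers above background had median log2 ratios of 0.01, -0.02 and 0.03 at 92 h.

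EGFR, the receptor of AREG, EREG, BTC, HBEGF and TGFA, showed no difference from 20 h that passed the test at any time. Its probe, EMBV3_14070, was close to the detection limit: the 20 h channel cleared it on 11 of 18 arrays, the 44 h channel on 4 of 6, the 68 h channel on 4 of 6 and the 92 h channel on 1 of 6. The log2 ratios were 0.03, 0.12 and -0.07 at 44 h, -0.02, 0.00 and 0.14 at 68 h and 0.04, -0.19 and 0.01 at 92 h. Their signs were mixed at each time. In the single arrays EGFR was above 0 on 0 of 9 with the coasted RNA in Cy5 and on 7 of 9 with it in Cy3.

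The EGFR means were 0.03 ± 0.10, 0.04 ± 0.09 and -0.05 ± 0.13 (SD, n = 3 each) at 44, 68 and 92 h, with adjusted p of 0.944, 0.823 and 0.813 by limma. At 92 h the 95% interval ran from 0.88-fold to 1.07-fold of the 20 h level, and since ratios of dim probes are compressed, the difference in mRNA may be larger than this interval. The levels averaged 7.93 ± 0.07 (SD, n = 9) in 20 h samples, 7.97 ± 0.20 in 44 h samples, 7.97 ± 0.13 in 68 h samples and 7.89 ± 0.09 in 92 h samples (SD, n = 3 each), and no neighbours in this order differed beyond their spread. EGFR and ERBB3 were thus measured unequally well, and a difference between their responses was not tested.

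BTC, betacellulin, a ligand of EGFR and ERBB4, was the ligand with a readable signal, and none of its 3 probes passed the test at any time. The brightest, EMBV3_17855, had log2 ratios of 0.66, 0.06 and 0.23 at 68 h, all above 0, with a mean of 0.32 ± 0.31 (SD, n = 3), a 95% interval of 0.98-fold to 1.58-fold and an adjusted p of 0.464 by limma. At 92 h its ratios were -0.19, -0.42 and 0.01, with a mean of -0.20 ± 0.22, an interval of 0.69-fold to 1.10-fold and an adjusted p of 0.592 by limma. At 44 h they were 0.00, -0.46 and 0.04.

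The 2 dye orientations of each EMBV3_17855 replicate lay closer together than the lowest and highest replicate ratios of its time did. This did not hold for every pair of replicates. Its levels averaged 11.36 ± 0.22 (SD, n = 9) in 20 h samples, 11.23 ± 0.50 in 44 h samples, 11.64 ± 0.10 in 68 h samples and 11.20 ± 0.44 in 92 h samples (SD, n = 3 each). Replicate 2 was the lowest sample of both 44 h (10.70) and 92 h (10.74), against 11.30 and 11.69 in the other samples of 44 h and 11.23 and 11.63 in those of 92 h. At 68 h the samples had 11.72, 11.67 and 11.52, above the 20 h highest value of 11.65 in 2 of 3. The log2 ratio at 92 h minus that at 68 h was -0.52, with an unadjusted p of 0.0372 and an adjusted p of 0.936 by limma.

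The second BTC probe, EMBV3_40394, had log2 ratios of 0.01, -0.12 and 0.67 at 44 h, -0.09, 0.03 and -0.20 at 68 h and -0.20, -0.16 and 0.03 at 92 h. Its means of 0.19, -0.09 and -0.11 had adjusted p of 0.784, 0.841 and 0.813 by limma. This probe differed between dye orientations: the ratio was above 0 on 9 of 9 arrays with the coasted RNA in Cy5 and on 1 of 9 with it in Cy3. At 92 h the mean was 0.12 in Cy5 and -0.34 in Cy3, opposite in sign. Its 92 h levels of 8.78, 8.75 and 8.81 lay at the low end of the 20 h range of 8.78 to 9.19, and the ratios within arrays, with both dyes averaged, did not differ from 0 beyond their spread.

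The dimmest BTC probe, EMBV3_07896, had mean log2 ratios of 0.05 ± 0.13, -0.04 ± 0.13 and 0.01 ± 0.08 (SD, n = 3 each) at 44, 68 and 92 h, with adjusted p of 0.887, 0.819 and 0.986 by limma. Its 95% interval at 92 h ran from 0.90-fold to 1.11-fold. The 3 probes did not follow one another: over the 9 ratios, r was -0.37 between EMBV3_07896 and EMBV3_17855, 0.40 between EMBV3_07896 and EMBV3_40394 and 0.11 between EMBV3_17855 and EMBV3_40394. These correlations describe values that share arrays and 20 h RNA. At 68 h the mean was above 0 for EMBV3_17855 and below 0 for the other BTC probes, so no single direction can be given for BTC.

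AREG, amphiregulin (probe EMBV3_31722), was above background in 0 of 18 channels of 20 h RNA, in 0 of 6 of 44 h, in 1 of 6 of 68 h and in 0 of 6 of 92 h. Its log2 ratios were 0.02, 0.08 and 0.07 at 44 h, 0.15, 0.15 and 0.34 at 68 h and 0.07, 0.05 and 0.20 at 92 h. All 9 were above 0. By dye orientation, the ratio was above 0 on 9 of 9 arrays with the coasted RNA in Cy3 and on 4 of 9 with it in Cy5. With all probes tested and none left out as dim, the smallest adjusted p of AREG was 0.222 by limma, at 68 h. No fold change is given for AREG, since its mean level at 68 h, 7.78 on the log2 scale, was below the lowest level above background at that time, 7.81.

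HBEGF, TGFA, NRG1 and ERBB4 had ratios with no measured level behind them. HBEGF ran from -0.04 to 0.08 over the 9 log2 ratios, with 7 of 9 above 0, and TGFA from -0.06 to 0.03, with 1 of 9 above 0. NRG1 ran from -0.08 to 0.03 for EMBV3_00730 and from -0.02 to 0.05 for EMBV3_28886. ERBB4 ran from -0.20 to 0.34, with 7 of 9 above 0. In the single arrays the sign split by dye for 4 of these 5 probes: HBEGF was above 0 on 0 of 9 arrays with the coasted RNA in Cy5 and on 9 of 9 with it in Cy3, ERBB4 on 1 of 9 and 9 of 9, and TGFA and NRG1 probe EMBV3_00730 on 9 of 9 and 0 of 9. NRG1 probe EMBV3_28886 was above 0 on 9 of 9 in Cy5 and on 4 of 9 in Cy3. ERBB4 had the widest spread of the 5, from -0.97 to 1.15 over its single arrays. Averaging both orientations cancels a dye effect that is equal in both. With no probe left out as dim, their smallest adjusted p-values by limma were 0.348 for HBEGF, 0.429 for TGFA, 0.357 and 0.866 for the NRG1 probes and 0.475 for ERBB4. No fold change is given for these genes, since none was above background on both sides of a comparison or far enough above it on 1 side to give a bound over 1.

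The other ligands of the family gave little more. EGF itself had 1 of its 2 probes above background, in 3 of 6 channels of 92 h RNA and 11 of 18 of 20 h RNA, with a log2 ratio at 92 h of 0.09, -0.12 and -0.01 in the 3 replicates. The mean was -0.01 ± 0.10 and had an adjusted p of 0.979 by limma. Of the other 4 ligands listed, NRG3 was not above background often enough, and EPGN, NRG2 and NRG4 had no probe by symbol.

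The genes around the ligands and receptors were grouped by their place in the pathway into 6 lists of 133 genes, 93 of them above background. At 92 h, 4 of the 93 rose, 1 of them with a 20 h side mostly at background, and 0 fell, 4.3% in all, beside 0.942% higher and 0.797% lower of all 11044 named genes. At 44 and 68 h 0 of the 93 passed the test by limma. The median log2 ratio of all named genes was 0.00 at each time, with 49.6% of the genes above 0 at 92 h.

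Ligand shedding and processing, the proteases ADAM10 and ADAM17 with their helpers and inhibitors, had 16 of 20 genes above background, of which 0 passed the test in either direction at 92 h by limma. Their median log2 ratio was 0.00, with 8 of 16 above 0. The smallest p belonged to NRDC, nardilysin, which enhances shedding by ADAM proteases. Its ratios were -0.66, -0.86 and -0.73, a mean of -0.75 ± 0.11 (SD, n = 3) with an adjusted p of 0.110 by limma. TIMP1, a metalloproteinase inhibitor, had 0.26, 1.34 and 0.01, a mean of 0.54 ± 0.71 with an adjusted p of 0.300 by limma, and its other probe had 0.76 with an adjusted p of 0.214.

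Receptor adaptors with PI3K and the RAS to ERK kinases had 24 of 36 genes above background, of which 2 rose and 0 fell at 92 h, with a median of 0.00. GAB1, a docking protein that receptor kinases phosphorylate and that recruits PI3K, had ratios of 0.93, 1.36 and 0.69, a mean of 0.99 ± 0.34 (SD, n = 3) with an adjusted p of 0.0321 by limma. A second GAB1 probe above background had 0.24 with an adjusted p of 0.440, so the probes of this gene disagreed in size. GAB2, its paralog, had 0.30, 0.51 and 0.21, a mean of 0.34 ± 0.15 with an adjusted p of 0.0392 by limma. GAB2 cleared the limit on 3 of 6 arrays in the 92 h channel, against 2 of 18 in the 20 h channel, so it did not pass the filter on dim probes through 20 h and its ratio rests on a 20 h side mostly at background.

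Feedback inhibitors of the receptors and of ERK, such as the sprouty and dual-specificity phosphatase genes, had 18 of 26 genes above background, of which 1 rose and 0 fell, with a median of 0.14 and 12 of 18 above 0. DUSP6, the phosphatase that inactivates ERK, had 0.78, 0.55 and 0.86, a mean of 0.73 ± 0.16 (SD, n = 3) with an adjusted p of 0.0390 by limma. Its means at 44 and 68 h were -0.06 and 0.29, with adjusted p of 0.935 and 0.400.

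ERK-responsive genes and genes of cumulus expansion had 19 of 23 above background, of which 1 rose and 0 fell, with a median of 0.48 and 18 of 19 above 0. Replicate 2 stood apart here too, with a median of 0.89, against 0.43 in replicate 1 and 0.24 in replicate 3. PTX3 and TNFAIP6, matrix genes of cumulus expansion, had 0.64, 4.67 and -0.05 and 1.06, 4.39 and -0.06 in the 3 replicates, and neither passed the test (adjusted p = 0.354 and 0.300 by limma). TNFAIP6 was above background in 4 of 6 channels of 92 h RNA and 8 of 18 of 20 h RNA, and CD44 in 5 of 6 and 5 of 18. These 2 of the 19 genes did not pass the filter on dim probes through 20 h, so their place in the count above 0 is partly set by the filter. Without replicate 2 the median was 0.32, with 18 of 19 above 0. At 44 and 68 h the median was 0.02 and 0.06, with 11 of 19 above 0 at both. MYC, a transcription factor gene that growth factors induce, had 1.18, 1.84 and 1.56 at 92 h, a mean of 1.52 ± 0.33 (SD, n = 3) with an adjusted p of 0.0288 by limma. At 44 and 68 h MYC had means of -0.06 and 0.63, with adjusted p of 0.968 and 0.347.

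Upstream signals, the gonadotropin receptors, the cAMP pathway and oocyte factors with their receptors, had 15 of 23 genes above background, of which 0 passed in either direction at 92 h by limma, with a median of -0.04. PGR, the progesterone receptor, had -0.56, -0.68 and -0.49, a mean of -0.57 ± 0.10 (SD, n = 3) with an adjusted p of 0.112 by limma. BMPR1B, a receptor of oocyte-derived growth factors, had 0.73, 1.19 and 0.34, a mean of 0.75 ± 0.43 with an adjusted p of 0.113 by limma, while its other probes had 0.12 and 0.02. The probe with 0.75 was above background in 6 of 6 channels of 92 h RNA and 8 of 18 of 20 h RNA. It thus did not pass the filter on dim probes through 20 h, and its ratio rests on a 20 h side mostly at background.

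The calls of the 4 pathway genes held under fewer of the alternatives than that of ERBB3. DUSP6 kept its call under 11 of 23, GAB1 under 12 of 23, GAB2 under 8 of 22 and MYC under 13 of 23, against 16 of 23 for ERBB3. All kept their direction, which many of these settings could not change. Each of the 4 lost it when any 1 of the 92 h replicates was left out, with adjusted p of 0.141 to 0.211 for DUSP6, 0.0577 to 0.176 for GAB1, 0.0555 to 0.190 for GAB2 and 0.0952 to 0.164 for MYC by limma. In a fit of all 9 ratios with a replicate block the adjusted p was 0.0901 for DUSP6, 0.0755 for GAB1, 0.0840 for GAB2 and 0.0815 for MYC, against 0.0163 for ERBB3.

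**Figure D5:**
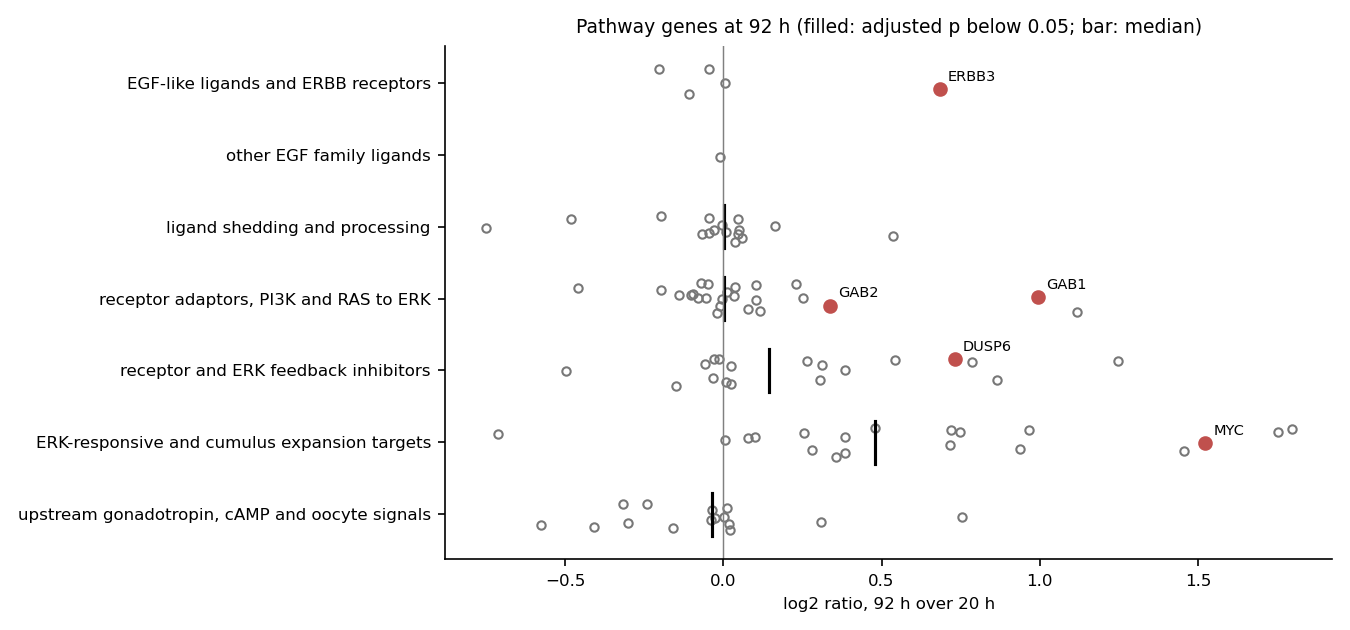
Log2 ratio of 92 h over 20 h (x axis) for the 5 ligand and receptor probes above background (upper row, 3 of them BTC) and for the genes of each pathway list, 1 point per gene, filled and named where the adjusted p was below 0.05, with a bar at the list median. The named points are ERBB3 at 0.68, GAB2 at 0.34, GAB1 at 0.99, DUSP6 at 0.73 and MYC at 1.52, all to the right of 0.

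The genes whose 9 log2 ratios followed those of ERBB3 most closely, among 11043 other named genes, were PRCP (r = 0.96), ZNF786 (0.96), ICA1 (0.95), SYNE1 (0.95) and ARHGAP1 (0.95). SYNE1, a nuclear envelope protein, had mean log2 ratios of -0.15, 0.80 and 1.47 at 44, 68 and 92 h, with an adjusted p of 0.0281 at 92 h by limma. PRCP, a carboxypeptidase, had -0.29, 0.08 and 0.38, with an adjusted p of 0.0328 at 92 h, so its means had the order of those of ERBB3 at another size. For EGFR the nearest were SRF (0.97), ZBTB32 (0.97), ALDH5A1 (0.97), SDR42E1 (0.97) and LOC614244 (0.96), with mean log2 ratios at 92 h from -0.25 to 0.01 and adjusted p of 0.515 or above. Across so many genes and 9 values that share arrays, dyes and 20 h RNA, these correlations are a description only.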

How the data were processed

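Per the labels' protocols, total RNA of cumulus cells was amplified in 2 rounds, coupled to Cy3 or Cy5 and put on Agilent slides. The deposited scanner tables give, per the file headers, an uncorrected mean intensity for each spot and for its local background. The deposited value table holds a log2 ratio per probe, which follows Cy5 over Cy3 of the scanner values, with its background correction and normalization unknown, and it served as an alternative. What the authors used for image analysis and normalization is not given in the sources used here.

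Background was corrected with normexp (offset 50), each array was loess-normalized, control spots having weight 0, and the 2 dye orientations of a replicate, taken as a dye swap of the same extracts, were averaged to 9 ratios. A probe was tested when above the detection limit on at least 50% of the arrays at 1 or more of the 4 times (27381 of 43794). Channel levels were also scaled by Aquantile. Symbols came from the platform annotation (21790 probes with 1, 22004 with none, 0 with several), with 1524 updated through RefSeq names and 241 unmatched. Genes with several probes were counted by the brightest. Tests used limma 3.58.1 (lmFit, eBayes, R 4.3.3), with a coefficient for each time, two-sided, with Benjamini-Hochberg adjustment over all tested probes and a threshold of 0.05. On simulated ratios for 92 h over 20 h with 200 of 27381 probes changed by 1 on the log2 scale, the test recovered 151 and called 16 others. Those 16 made up a larger share of its calls than the threshold of 0.05. The simulated ratios were independent of one another, so they do not give the error rate for ratios that share 20 h RNA or a dye effect. Loess hides a shift shared by most genes. If arrays of different times hold the same 20 h RNA, the 9 ratios are not independent, and the p-values may be too small or too large.

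The members, the lists and the tests were chosen with earlier results of these data known. Named are all members, the list genes past the threshold or else the 2 of smallest p at 92 h, and the 5 genes most like ERBB3 and EGFR. The cell type markers, PTX3, TNFAIP6 and CD44 were named after their values were seen. Replicate numbers mark no shared animals in the labels. Deviations of same-numbered ratios correlated with r of 0.33, 0.24 and 0.22 between 92 and 44 h, all above 0.1, so that difference was also fitted with the number as a block. Between 68 and 44 h r ran from -0.18 to -0.07, and between 92 and 68 h from -0.40 to 0.01. Promoter and protein sequences were not used here.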

Additional observations from a re-analysis of the deposited data

Results flagged for a closer look

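The 20 h level of AREG was 7.34 on the log2 scale on the arrays of 68 h replicate 3, below the other 8 values at 20 h. Its gap to the nearest of them was 0.66 of the whole range of the 9 values, which is why it is listed here. On that pair of arrays the AREG level at 20 h was 7.12 with the 20 h RNA in Cy5 and 7.56 with it in Cy3, and the channels were not above background. The highest AREG log2 ratio, 0.34, comes from the same arrays. The 20 h values of 11 probes were examined in this way, and chance flags about 1 in 20 such groups.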

How the results depend on the processing

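Counts of probes past the threshold varied widely with the processing, and the cause was not tested. Some of the fits hold fewer samples or take single arrays as values. At 92 h, 355 probes passed as reported, 704 with no background correction, 761 with plain subtraction, 15 with median centring, 176 with no filter on dim probes, 0 with a trended and robust prior, 0 with the 3 ratios fitted alone, 725 and 4516 with the coasted RNA in Cy5 or Cy3 only, and 8750 with slide as a random block over 18 single arrays. The replicate block over the 9 ratios gave 96, and the replicate block over 44 and 92 h only, chosen after seeing the data, gave 0. Leaving out 1 replicate gave 0 to 628 at 92 h: 178, 628 and 555 without 44 h replicates 1, 2 and 3, 113 and 36 without 68 h replicates 1 and 3, and 0, 5 and 75 without 92 h replicates 1, 2 and 3. At 68 h, 0 as reported became 7 with median centring, 343 and 6945 in Cy5 or Cy3 only, 498 and 2219 with slide as a fixed or random block, and 0 to 38 without 1 replicate (38 without 44 h replicate 2, 3 without 44 h replicate 3 and 3 without 92 h replicate 2). At 44 h, 0 became 615 and 589 in Cy5 or Cy3 only and 1 and 6885 with slide as a fixed or random block. Between the longer times, 0 became 5 in Cy3 only, 6360 with slide as a random block and 0 to 5 without 1 replicate (5 without 92 h replicate 3). The member count at 92 h, 1, became 0 with median centring, with the trended prior, with the 3 ratios alone and in the block of 44 and 92 h, 2 with slide as a random block, where BTC probe EMBV3_17855 fell by 0.20 (adjusted p = 0.0327 by limma), and 0 to 1 without 1 replicate. At 68 h it became 1, ERBB3, in Cy5 only, in Cy3 only and with slide as a fixed or random block. At 44 h it stayed at 0 under all 24 alternatives. Splits between higher and lower calls at 92 h were 202 to 153 as reported and 3 to 12 with median centring, 34 to 62 with the replicate block and 336 to 389 in Cy5 only. Of the ratios of single members under the alternatives, 317 stayed on the same side of the threshold and within 1 replicate SD, 21 of them with the other sign, all of ratios not past the threshold, and 12 moved by more than that SD, 5 of them with the other sign. Another 5 passed the threshold only there and 7 missed it only there, all with the sign as reported. Signal close to background limits EGFR and the 6 untested probes.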
